A study of Homo sapiens with 10 samples.

Results

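Genes at 0 to 20 Mb of chromosome 16, at the end of its short arm, were followed across clones of the human cell line U2932. This established line was derived from a diffuse large B cell lymphoma, which arises from mature B cells. The members were chosen by position, as the protein-coding genes that start before 20 Mb of chromosome 16 (GENCODE annotation of GRCh38) and have a mean of 1 or more counts per 1000000 counts (CPM) over the 10 libraries. CREBBP and CIITA, which lie in this stretch, were set apart and are described beside it. Of 268 genes at these positions 180 were kept, out of 21174 gene identifiers in all and 11262 protein-coding genes with a mean of 1 CPM or more. The 88 left out were below 1 CPM, and 34 of these had no count in any library. Just outside the limit stood TNFRSF12A at 0.781 and FBXL16 at 0.943 CPM, and just inside it METRN at 1.06 and DNASE1L2 at 1.07 CPM. The stretch was picked because earlier results of these libraries had pointed to it, so its levels per library are a description and carry no test.

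The study measured RNA of U2932 clones in 5 libraries labelled CREBBP+/- (Het_6 to Het_10) and 5 labelled CREBBP+/+ (WT_1 to WT_5), all kept in serum-supplemented RPMI with no treatment named, and compared transcript levels between these genotypes. How the CREBBP+/- clones were made, and whether each library stands for a separate clone and culture, is not stated in the labels. The p-values therefore measure the spread between these libraries, which may be technical. The Het columns carry numbers that no labelled library has, so they were assigned by genotype alone. Total counts ranged from 10615977 (Het_9) to 23020694 (Het_6). The B cell markers CD79A, CD79B, MS4A1, PAX5 and CD74 stood between 233 and 2599 CPM in every library. CD3D was at 0 in every library, the other T cell, myeloid and keratin markers were at most 1.08 CPM, and EPCAM had 1.42 to 26.7 CPM. Clustering on 11378 genes outside chromosome 16 joined Het_8 with WT_1 and WT_2, Het_9 with Het_10, and Het_6 and Het_7 with WT_3, WT_4 and WT_5, so the clusters cross the genotypes.

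The short arm of chromosome 16 is among the gene-dense stretches of the human genome. Its end carries the alpha globin cluster, followed by housekeeping genes such as TSC2, the brake on the growth kinase complex mTORC1. Further in lie CREBBP, which encodes a histone acetyltransferase that serves as a transcriptional coactivator, and CIITA, the master transactivator of MHC class II genes. SOCS1, an inhibitor of JAK-STAT signalling that is recurrently mutated in B cell lymphomas, starts at 11.25 Mb, beyond CIITA at 10.87 Mb. TNFRSF17, which encodes the B cell maturation antigen, starts at 11.97 Mb. In an aneuploid line, the dosage of a chromosome stretch is one of the things that sets the RNA levels of its genes together.

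GC content enters the results below because the stretch is rich in G and C. Transcripts of the members had a median GC content of 57.7%, against 47.5% for the 10720 protein-coding genes outside chromosome 16. The promoter window from 250 bases before to 50 bases after the gene start had a median of 68.8%, against 62.7%. These medians use the GENCODE gene start. RefSeq's promoter table (GRCh38.p14), which holds 143 of the members and can place the start elsewhere, gives another value for some genes. Its members with the highest and the lowest GC content are printed 5′ to 3′ with each CpG in capitals, to show what a GC-rich and a GC-poor window look like. PGAP6, which encodes a lipase of glycosylphosphatidylinositol anchors, had a GC content of 84.3% with 50 CpG (chr16:381929-382228, minus strand). NPIPA1, of the duplicated nuclear pore complex interacting protein family, had 37.7% with 4 CpG (chr16:14937193-14937492, plus strand). At the GENCODE start the window of PGAP6 had 45% and that of NPIPA1 68%, so these sequences are not the ends of the range behind the medians.
PGAP6: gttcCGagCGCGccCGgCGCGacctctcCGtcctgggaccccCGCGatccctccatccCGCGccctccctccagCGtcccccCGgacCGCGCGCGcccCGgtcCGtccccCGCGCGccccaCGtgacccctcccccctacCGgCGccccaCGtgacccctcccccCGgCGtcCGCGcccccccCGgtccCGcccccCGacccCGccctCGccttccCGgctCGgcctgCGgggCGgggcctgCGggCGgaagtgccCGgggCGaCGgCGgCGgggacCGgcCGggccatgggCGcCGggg
NPIPA1: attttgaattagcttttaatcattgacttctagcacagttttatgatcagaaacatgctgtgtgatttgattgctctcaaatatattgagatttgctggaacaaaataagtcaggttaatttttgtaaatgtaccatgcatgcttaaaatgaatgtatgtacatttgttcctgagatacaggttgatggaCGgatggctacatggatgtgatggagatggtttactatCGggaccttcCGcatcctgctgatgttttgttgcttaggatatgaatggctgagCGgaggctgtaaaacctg

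Members were lower in Het_6 and Het_7 than in the other libraries as a broad, shallow shift. For each gene the deviation of a library is its log2 CPM minus the gene's median log2 CPM over the 10 libraries, and the median over the members was then taken. That median was -0.21 in Het_6, -0.24 in Het_7, 0.095 in Het_8, -0.0063 in Het_9 and 0.088 in Het_10. In CREBBP+/+ libraries it was 0.15 in WT_1, 0.066 in WT_2, -0.086 in WT_3, -0.061 in WT_4 and 0.19 in WT_5. Het_6 and Het_7 thus lay lowest, WT_3 and WT_4 lay next, and WT_5 lay highest. Over the 10720 genes outside chromosome 16 the same medians stayed between -0.0091 and 0.0071. By genotype the members' medians had a mean of -0.054 (SD 0.16, n = 5) in CREBBP+/- and of 0.053 (SD 0.12, n = 5) in CREBBP+/+ libraries. The ranges of both genotypes overlapped. In such bulk RNA, fewer cells with a given level and less RNA per cell cannot be told apart.

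In Het_6 83.3% and in Het_7 90% of the members lay below their own median over the libraries, against 47.7% and 47.5% of the genes outside chromosome 16. The share was 37.8% in Het_8, 53.3% in Het_9 and 26.1% in Het_10, and 21.1%, 40%, 68.9%, 62.8% and 16.7% in WT_1 to WT_5. Among the 150 windows of 20 Mb with at least 20 genes, 0 to 20 Mb of chromosome 16 was the lowest in Het_7 and the fifth lowest in Het_6. The lowest window stood at -0.24 in each of Het_6 and Het_7, whereas the lowest windows of Het_9 and Het_10, elsewhere in the genome, reached -0.84 and -0.85. In Het_8, Het_9 and Het_10 the stretch ranked 128, 72 and 132 from the bottom, so these 3 CREBBP+/- libraries did not share the low position. It ranked 132, 108, 17, 52 and 141 in WT_1 to WT_5.

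**Figure D1:**
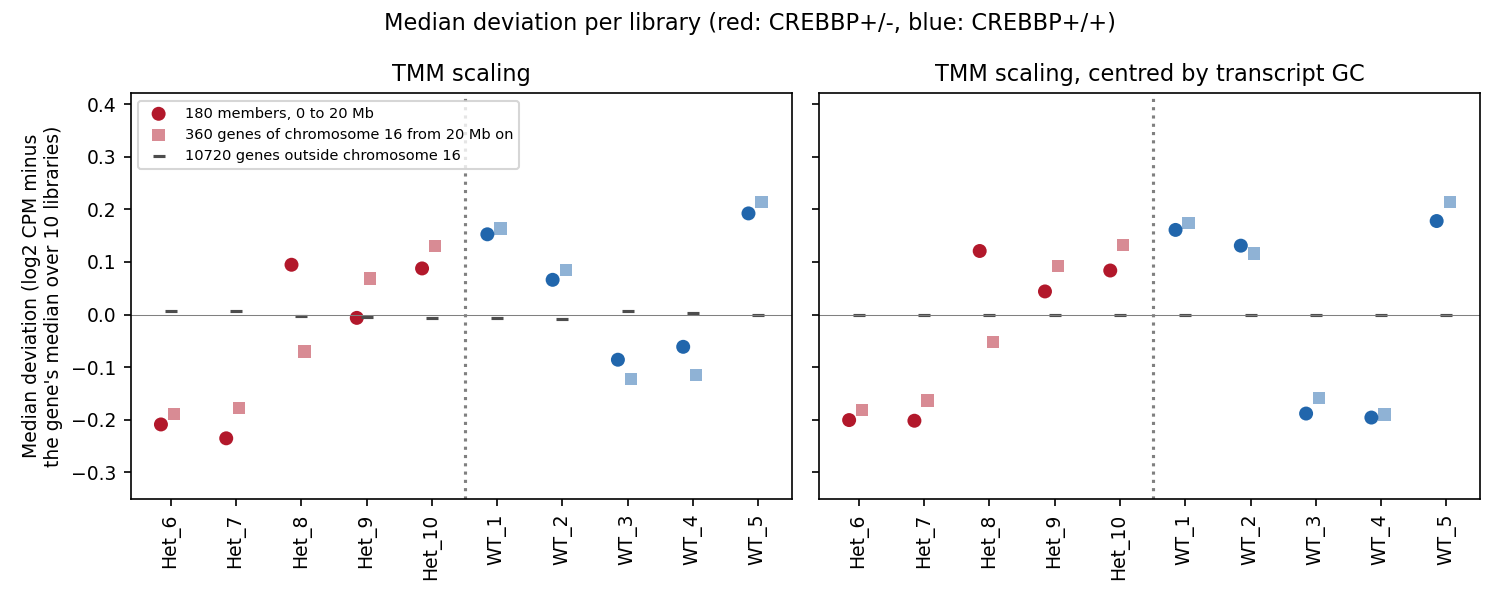
Median deviation (log2 CPM minus the gene's median over the 10 libraries, y axis) of each library (x axis; red CREBBP+/-, blue CREBBP+/+) for the 180 members (circles), the 360 genes of chromosome 16 from 20 Mb on (squares) and the 10720 genes outside chromosome 16 (dashes), without (left) and with (right) centring by transcript GC. Het_6 and Het_7 lie lowest on the left, and on the right WT_3 and WT_4 lie beside them.

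The low position of Het_6 and Het_7 was not limited to this stretch of the chromosome. Over the 360 genes of chromosome 16 that start at 20 Mb or later, the median was -0.19 in Het_6, -0.18 in Het_7, -0.070 in Het_8, 0.068 in Het_9 and 0.13 in Het_10. In CREBBP+/+ libraries it was 0.16, 0.085, -0.12, -0.12 and 0.21 in WT_1 to WT_5. Het_6, Het_7, WT_3 and WT_4 were below 0 in both stretches, whereas Het_8 was above 0 in the members and below 0 further along. Chromosome 22 (-0.12 and -0.13), chromosome 15 (-0.10 and -0.12) and chromosome 1 (-0.077 and -0.096) were the next lowest whole chromosomes in Het_6 and Het_7, and chromosome 16 as a whole was the lowest (-0.19 in each). Parts of chromosome 1 were as low as the members, and all windows below the stretch in Het_6 were on it. Its window from 20 Mb stood at -0.24 in Het_6 and -0.23 in Het_7. Its window from 140 Mb stood at 0.011 and -0.0036.

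Transcript GC moved with the libraries, and centring by it changed the values of several of them. Of the members, 53.9% had a transcript GC above 56.5%, as did 2568 genes outside chromosome 16. Those genes outside deviated by -0.029 in Het_6, -0.053 in Het_7, -0.033 in Het_8, -0.074 in Het_9 and 0.017 in Het_10, and by -0.0082, -0.096, 0.11, 0.18 and 0.012 in WT_1 to WT_5. When each library's deviations were centred on genes outside chromosome 16 of like transcript GC, in 20 bins, the members' median was -0.20 in Het_6, -0.20 in Het_7, 0.12 in Het_8, 0.044 in Het_9 and 0.084 in Het_10. It was 0.16 in WT_1, 0.13 in WT_2, -0.19 in WT_3, -0.20 in WT_4 and 0.18 in WT_5. With this centring, chosen after the data were seen, Het_6, Het_7, WT_3 and WT_4 lay between -0.20 and -0.19, and libraries of both genotypes stood on each side of 0. WT_3 and WT_4 moved down, WT_2 moved up and Het_9 moved to the other side of 0. In the order of the 150 windows from the lowest, the stretch then stood at 5 in Het_6, 6 in Het_7, 8 in WT_3 and 6 in WT_4. Centring by promoter GC instead left WT_3 at -0.10 and WT_4 at -0.094. The part of GC content in the position of each library was not tested beyond these centrings.

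The depth of the low position varied along the stretch, which was split at 4 Mb, a limit that was not planned. The 104 members before 4 Mb, with a median transcript GC of 62.2%, had medians of -0.28 in Het_6, -0.29 in Het_7, -0.022 in WT_3 and -0.029 in WT_4. The 76 members from 4 Mb on, with 51.5%, had -0.15 in Het_6, -0.18 in Het_7, -0.17 in WT_3 and -0.10 in WT_4. In Het_8 the median was 0.16 before 4 Mb and -0.012 from 4 Mb on. After centring by transcript GC the block before 4 Mb had -0.25 in Het_6, -0.23 in Het_7, -0.17 in WT_3 and -0.24 in WT_4. The block from 4 Mb on then had -0.16 in Het_6, -0.19 in Het_7, -0.21 in WT_3 and -0.13 in WT_4. With this centring the blocks lay closer together in Het_6, Het_7 and WT_3, and WT_4 was lower before 4 Mb than after it. The last 13 members, from 18 to 20 Mb, were low in all 4 of these libraries without any centring, at -0.28, -0.30, -0.31 and -0.32, and high in Het_8, WT_1 and WT_2 at 0.21, 0.36 and 0.35.

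**Figure D2:**
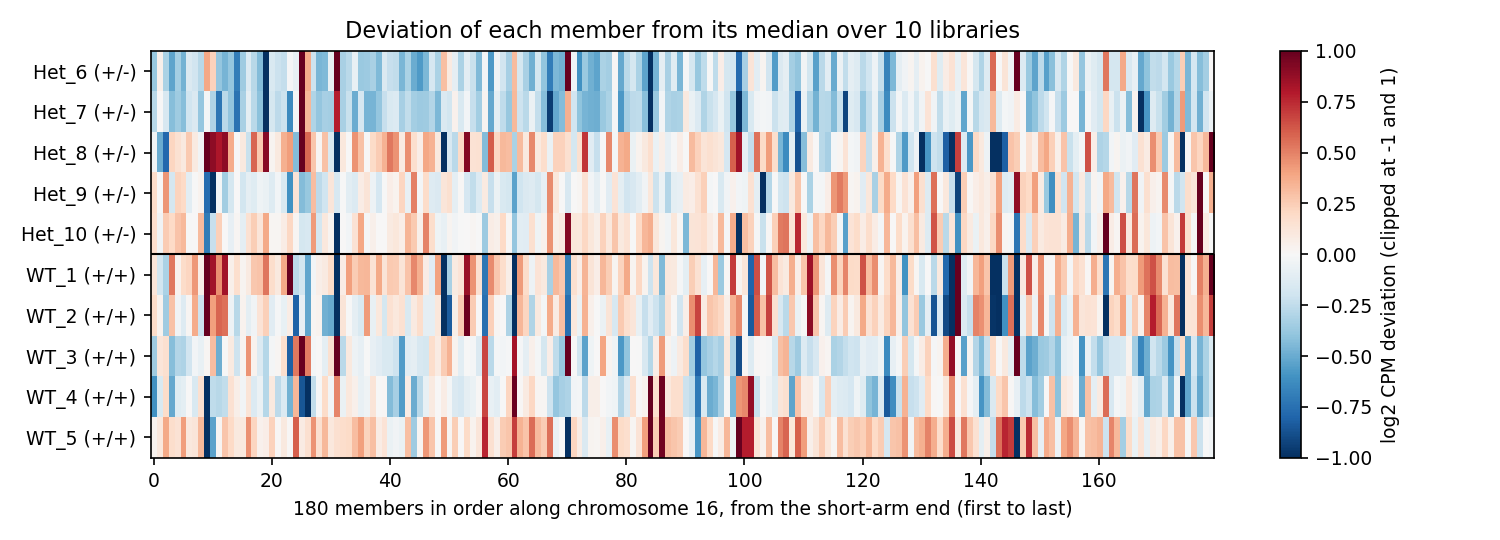
Deviation (log2 CPM minus the gene's median, colour, clipped at -1 and 1) of each of the 180 members (x axis, in order along the chromosome) in each library (y axis, CREBBP+/- above the line and CREBBP+/+ below it). Het_6 and Het_7 are mostly blue, less so around CIITA, and single members stand out in Het_8, WT_1 and WT_2.

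Gene by gene, Het_6 and Het_7 were together the lowest of the 10 libraries for 54 of 180 members (30%), against 4.93% of all 11262 protein-coding genes. These values chose the stretch, so the count supports nothing further. Of the 54, 47 were among the 104 members before 4 Mb and 7 among the 76 members from 4 Mb on. PGAP6 and NPIPA1, whose RefSeq windows are shown above, were both among the 54. PGAP6 had 32.5 and 30.2 CPM in Het_6 and Het_7, 38.5 to 49.3 CPM in Het_8, Het_9 and Het_10, and 34.1 to 49.5 CPM in CREBBP+/+ libraries. NPIPA1 had 17.9 and 17.1 CPM in Het_6 and Het_7, 19.3 to 26.95 CPM in Het_8, Het_9 and Het_10, and 19.8 to 28.8 CPM in CREBBP+/+ libraries. On chromosome 16 from 20 Mb on, Het_6 and Het_7 were together the lowest for 49 of 360 genes (13.6%). They were the highest for 1 member, NPIPB2, against 4.68% of all genes. Het_6, Het_7, WT_3 and WT_4 lay below the other 6 libraries for 48 members (26.7%), against 5.6% of all genes and 27.5% of the 360 genes further along. They lay above the other 6 for 1 member (0.556%), against 5.03% of all genes. These libraries had the lowest medians over the same members and their grouping was not planned, so these counts support nothing further either.

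The 6 members with the lowest mean deviation in Het_6 and Het_7 were KREMEN2, which encodes a Wnt pathway receptor, RAB40C, a small GTPase with a SOCS box, NLRC3, a NOD-like receptor that dampens immune signalling, RHBDL1, DNASE1L2 and one copy of NPIPA9. KREMEN2 had 6.31 and 10.2 CPM in Het_6 and Het_7, 22.8 to 27.1 CPM in Het_8, Het_9 and Het_10, and 17.2 to 50.5 CPM in CREBBP+/+ libraries. RAB40C had 9.90 and 9.59 CPM in Het_6 and Het_7, 16.01 to 16.3 CPM in Het_8, Het_9 and Het_10, and 13.2 to 18.0 CPM in CREBBP+/+ libraries. For both genes Het_6 and Het_7 lay below the 8 other libraries. NLRC3 did not follow this split, with 10.3, 6.70, 31.9, 17.4 and 7.03 CPM in Het_6 to Het_10 and 18.2, 24.8, 9.56, 24.2 and 37.0 CPM in WT_1 to WT_5.

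At the other end were SHISA9, SOX8, MYH11, ABCA3, CCDC78 and NPIPB2. SHISA9 had 17.9 CPM in Het_6 and 1.06 CPM in Het_7, and among CREBBP+/+ libraries 15.8 CPM in WT_3 and at most 0.934 CPM in the other 4. SOX8, a transcription factor of the SOX family, had 10.6 and 6.99 CPM in Het_6 and Het_7, 1.14, 3.58 and 1.16 CPM in Het_8, Het_9 and Het_10, and 0.616, 0.436, 12.4, 5.66 and 4.48 CPM in WT_1 to WT_5. The high values of both genes thus crossed the genotypes. The range over the 10 libraries had a median of 0.84 on the log2 scale over the members and 0.80 over genes outside chromosome 16, and it was above 2 for 17 members (9.44%) and 11.7% of the genes outside.

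Compared by genotype, no member passed the threshold. In the edgeR quasi-likelihood test over all 11961 genes kept by the low-count filter, 0 of 180 members had an adjusted p under 0.05 (0% of all genes, lower or higher). DESeq2 called 0 of the 179 members to which it gave an adjusted p, against 0.157% of its 12765 genes lower and 0.11% higher. At an unadjusted p under 0.05 in edgeR, 14 members (7.78%) were lower in CREBBP+/- libraries, against 2.6% of all genes, and 0 were higher, against 2.38%. The median log2 fold change (CREBBP+/- over CREBBP+/+) was -0.10 over the members, -0.091 over chromosome 16 from 20 Mb on and -0.011 over all genes tested, and 139 members (77.2%) were below 0, against 75.8% on chromosome 16 from 20 Mb on and 52.4% of all genes tested.

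That tilt changed with the libraries kept. The low values of Het_6 and Het_7 chose the stretch, so leaving them out was bound to raise the fold change. Without Het_6 and Het_7, the members' median log2 fold change was 0.011, with 2 members lower and 2 higher at an unadjusted p under 0.05. The 14 became 4 without Het_6, 5 without Het_7, 8 without Het_9 or WT_1, 7 without WT_5 and 23 without Het_8. The highest CREBBP+/- value was under the lowest CREBBP+/+ value for 3 members (1.67%), against 0.613% of all genes, and the reverse order was seen for 0, against 0.408%.

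The 3 members without overlap were HCFC1R1, ELOB and NAA60. HCFC1R1, which encodes a regulator of host cell factor 1, had 13.2, 13.45, 15.7, 13.5 and 16.2 CPM in Het_6 to Het_10 and 17.8, 18.2, 16.9, 17.8 and 20.6 CPM in WT_1 to WT_5. Its log2 fold change was -0.34 (SE 0.10), with an edgeR adjusted p of 0.842. ELOB, which encodes elongin B, a subunit of ubiquitin ligases, had 88.0, 83.3, 95.1, 89.3 and 99.3 CPM in Het_6 to Het_10 and 101, 108, 99.8, 111 and 101 CPM in WT_1 to WT_5. The log2 fold change for ELOB, with an edgeR adjusted p of 0.977, was -0.20 (SE 0.075). HCFC1R1 was closest in Het_10 and WT_3, and ELOB in Het_10 and WT_3 as well. NAA60, which encodes an N-terminal acetyltransferase of the Golgi, had 32.1 to 36.6 CPM in CREBBP+/- libraries, against 37.1 to 46.4 CPM in CREBBP+/+ libraries. HCFC1R1 overlaps THOC6 and ELOB overlaps SRRM2 on the opposite strand, and whether the counting used strand was not stated, which leaves their counts uncertain. NAA60 overlaps ENSG00000263212 on the same strand, so its count is uncertain as well.

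The other members with the smallest p among the lower ones were RPUSD1 (-0.29, SE 0.10), TSR3 (-0.29, SE 0.10), MLST8 (-0.29, SE 0.11) and CDIP1 (-0.54, SE 0.22), given as log2 fold changes with edgeR adjusted p from 0.944 to 0.977. TSR3 modifies ribosomal RNA and MLST8 is a subunit of both mTOR complexes. CDIP1, a mediator of stress-induced cell death, had 28.4 to 37.6 CPM in CREBBP+/- libraries, 63.4 and 65.7 CPM in WT_1 and WT_2, and 29.98 to 37.3 CPM in WT_3, WT_4 and WT_5. On the higher side the smallest p belonged to MYH11 (0.89, SE 0.47), VPS35L (0.72, SE 0.44), ABCA3 (0.78, SE 0.52), DEXI (0.36, SE 0.25), NPIPB2 (0.50, SE 0.37) and XYLT1 (0.20, SE 0.17), with edgeR adjusted p from 0.986 to 0.988. Without Het_9 and Het_10 the log2 fold change was -0.22 for VPS35L and -0.062 for XYLT1. MYH11, which encodes smooth muscle myosin heavy chain, had 9.64 to 31.3 CPM in Het_6 to Het_10 and 2.13 to 17.4 CPM in WT_1 to WT_5, and it overlaps NDE1 on the opposite strand.

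CREBBP, which lies in the block before 4 Mb, was lower in CREBBP+/- than in CREBBP+/+ libraries with no overlap, and it was set against its neighbours. CREBBP (ENSG00000005339, chromosome 16, 3725054 to 3880713, GRCh38) had 71.4, 77.4, 56.8, 61.4 and 80.7 CPM in Het_6 to Het_10 and 118, 103, 103, 115 and 136 CPM in WT_1 to WT_5. Its deviation was -0.35 in Het_6 and -0.23 in Het_7, while the median of the 10 nearest members, 5 on each side, was -0.17 and -0.14 there. In Het_8, Het_9 and Het_10 CREBBP stood at -0.68, -0.57 and -0.17, and its neighbours at 0.19, -0.069 and 0.23. CREBBP minus its neighbours was thus -0.18 in Het_6, -0.098 in Het_7, -0.87 in Het_8, -0.50 in Het_9 and -0.41 in Het_10.

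In CREBBP+/+ libraries CREBBP minus its neighbours was 0.25, -0.041, 0.18, 0.27 and 0.18 in WT_1 to WT_5, so the genotypes still did not overlap. The gap between the nearest libraries, Het_7 at -0.098 and WT_2 at -0.041, was small. Against the median of all 180 members, CREBBP in Het_7 differed by 0.00042. The genotype comparison of CREBBP itself gave -0.73 on the log2 scale (SE 0.12), with an adjusted p of 0.395 in edgeR and 0.000105 in DESeq2, and CREBBP did not pass the edgeR threshold.

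**Figure D3:**
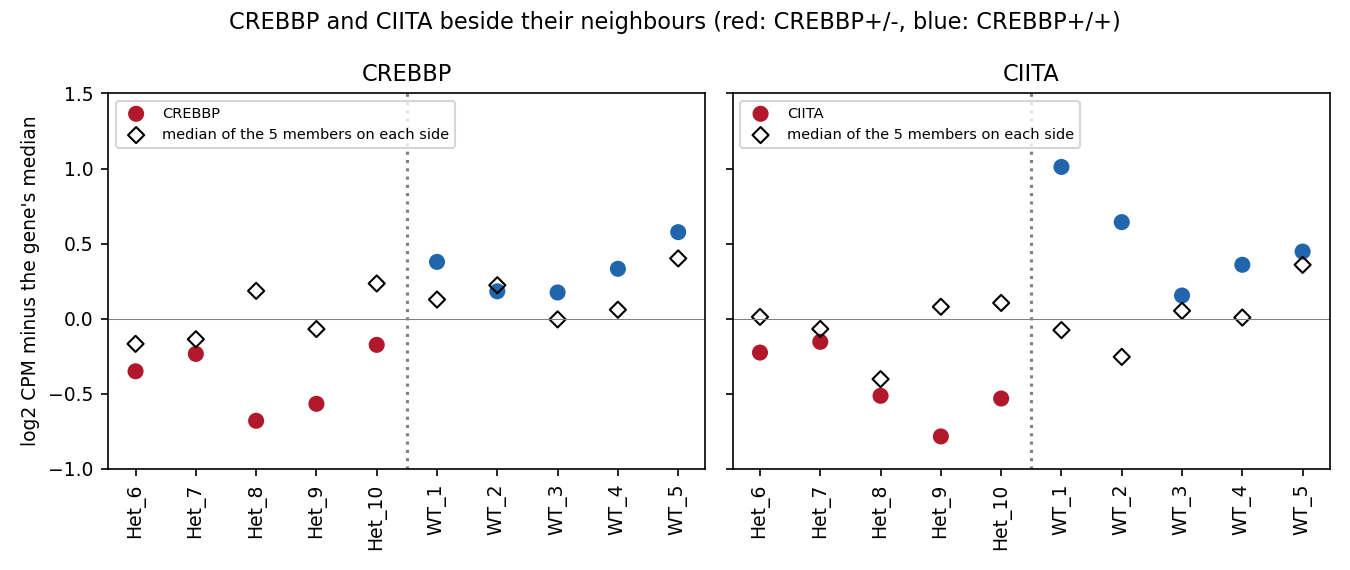
Deviation (log2 CPM minus the gene's median, y axis) of CREBBP (left) and CIITA (right) in each library (x axis; red CREBBP+/-, blue CREBBP+/+), with the median of the 5 members on each side (open diamonds). CREBBP lies closest to its neighbours in Het_7 among the CREBBP+/- libraries and in WT_2 among the CREBBP+/+ libraries.

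Around CIITA a different library stood apart. The 15 members that start from 10 to 12 Mb had a median of 0.0093 in Het_6, -0.075 in Het_7, -0.58 in Het_8, 0.063 in Het_9 and 0.089 in Het_10, and of -0.12, -0.23, 0.025, 0.0012 and 0.35 in WT_1 to WT_5. Het_8 lay below every other library for 6 of the 15 members (40%), against 14.7% of all genes. Het_8, WT_1 and WT_2 were together the lowest libraries for 8 of the 15 (53.3%), against 17.2% of all genes. This bin was singled out after its values were seen, as were SOCS1, RMI2, ATF7IP2 and LITAF. Het_6 and Het_7, low along most of the stretch, stood near 0 in it. This was not particular to the bin. Their medians were -0.037 and 0.0073 over the 3 members from 12 to 14 Mb. Over the 3 members from 16 to 18 Mb they were -0.076 and -0.059.

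The 8 members were ATF7IP2, DEXI, RMI2, SOCS1, TXNDC11, NPIPB2, TNFRSF17 and SNX29. SOCS1 (chromosome 16, 11254417 to 11256204) had 1.36 CPM in Het_8 and 15.2, 12.6, 11.7 and 14.9 CPM in Het_6, Het_7, Het_9 and Het_10. Among CREBBP+/+ libraries it had 0.862 and 1.09 CPM in WT_1 and WT_2 and 25.2, 19.1 and 21.7 CPM in WT_3, WT_4 and WT_5. No library lay between these ranges, and both genotypes were on each side. By genotype SOCS1 differed by -0.29 on the log2 scale (SE 0.88), with an edgeR adjusted p of 0.988, and leaving out 1 library moved it between -0.59 and 0.06.

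TNFRSF17 (chromosome 16, 11965210 to 11968068) had 37.6 CPM in Het_8 and 138 to 207 CPM in the other CREBBP+/- libraries, and 74.9 and 58.5 CPM in WT_1 and WT_2 against 150 to 220 CPM in WT_3, WT_4 and WT_5. RMI2, which encodes a subunit of the BLM complex that dissolves recombination intermediates, had 27.9 CPM in Het_8, 40.9 to 53.2 CPM in the other CREBBP+/- libraries, 28.5 and 26.3 CPM in WT_1 and WT_2, and 53.5 to 63.6 CPM in WT_3, WT_4 and WT_5. SOCS1 lies within RMI2 and NPIPB2 overlaps TNFRSF17, in each case on the opposite strand, so reads could be shared between the genes of each pair. ATF7IP2, which encodes a partner of a histone methyltransferase, stood apart most in Het_8, with 8.28 CPM against 16.5 to 19.0 CPM in the other CREBBP+/- libraries and 13.1 to 21.7 CPM in CREBBP+/+ libraries.

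Other genes of the bin did not share the low values of Het_8, WT_1 and WT_2. LITAF, which encodes an endosomal protein, had 57.5 CPM in Het_8 and 94.8 and 81.8 CPM in WT_1 and WT_2, above 18.8 to 34.3 CPM in the other CREBBP+/- and 35.7 to 38.4 CPM in the other CREBBP+/+ libraries. GSPT1, the translation termination factor eRF3a, was within 195 to 332 CPM in all libraries and highest in WT_2. ZC3H7A had 73.9 CPM in Het_8 and 81.2 and 90.8 CPM in WT_1 and WT_2, against 52.65 to 71.7 CPM in the other libraries. LITAF and ZC3H7A were thus high in the 3 libraries where SOCS1 was low. These 3 libraries were together the highest for 2 of the 15 members (13.3%), against 16.6% of all genes.

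**Figure D4:**
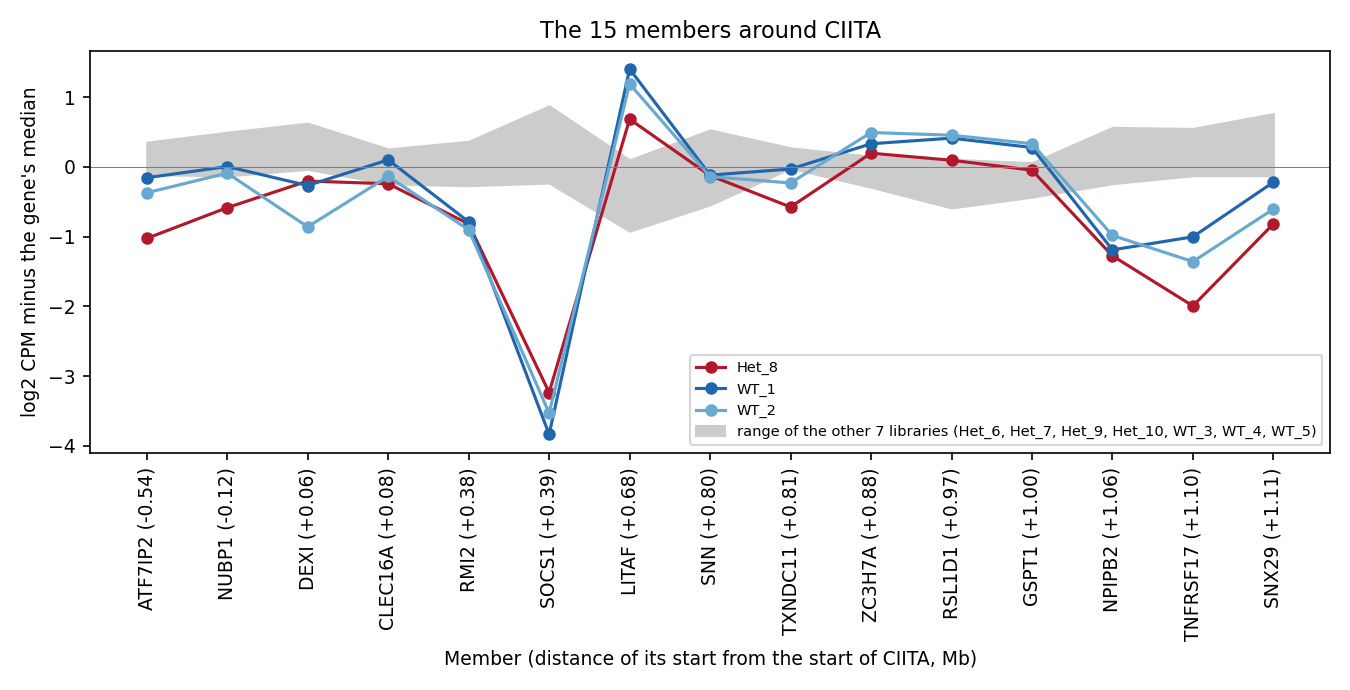
Deviation (log2 CPM minus the gene's median, y axis) of the 15 members around CIITA (x axis, in order, with the distance of each start from the start of CIITA in Mb) in Het_8, WT_1 and WT_2, with the range of the other 7 libraries in grey. In all 3 libraries 8 members, SOCS1, NPIPB2 and TNFRSF17 among them, lie below the grey range, and LITAF and ZC3H7A lie above it.

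CIITA (ENSG00000179583, chromosome 16, 10866222 to 10943021) had 105, 110, 85.8, 71.1 and 84.7 CPM in Het_6 to Het_10 and 247, 191, 136, 157 and 167 CPM in WT_1 to WT_5. The log2 fold change of CIITA was -0.98 (SE 0.17), with an adjusted p of 0.395 in edgeR and 0.000292 in DESeq2. In Het_8 CIITA deviated by -0.51 and its 10 nearest members by -0.40, a difference of -0.11. In Het_9 and Het_10 the difference was -0.86 and -0.64, with neighbours at 0.079 and 0.10, and in Het_6 and Het_7 it was -0.24 and -0.086. In WT_1 and WT_2, where several neighbours were low, CIITA stood 1.09 and 0.90 above them, and in WT_3, WT_4 and WT_5 it stood 0.10, 0.35 and 0.088 above. The genotypes did not overlap in this difference. CIITA overlaps DEXI on the opposite strand.

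Het_8, WT_1 and WT_2 were together the highest libraries for 32 of 180 members in all (17.8%), against 16.6% of all genes, a share near the background. They were together the lowest for 17 of 180 members (9.44%), against 17.2% of all genes, and 8 of these 17 lie in the bin around CIITA. RPS2, which encodes a protein of the small ribosomal subunit, had 2546 CPM in Het_8 and 1202 to 1351 CPM in the other CREBBP+/- libraries, 2449 and 2664 CPM in WT_1 and WT_2 and 1270 to 1538 CPM in WT_3, WT_4 and WT_5. RPS15A, of the same subunit, followed with 694 CPM in Het_8 and 423 to 520 CPM in the other CREBBP+/- libraries, 779 and 865 CPM in WT_1 and WT_2 and 403 to 533 CPM in the rest. TRAP1, the mitochondrial HSP90, which lies beside CREBBP, had 372 CPM in Het_8 against 237 to 254 CPM in the other CREBBP+/- libraries, and 401 and 389 CPM in WT_1 and WT_2 against 219 to 280 CPM in the rest. By genotype the log2 fold change was -0.27 (SE 0.28) for RPS2, -0.23 (SE 0.23) for RPS15A and -0.19 (SE 0.19) for TRAP1, each with an edgeR adjusted p of 0.988.

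Het_9 and Het_10 were together the lowest libraries for 4 members (2.22%, against 8.95% of all genes) and the highest for 6 (3.33%, against 9.63%). VPS35L, which encodes a subunit of an endosomal sorting complex, had 60.9 and 64.7 CPM in Het_9 and Het_10, 15.6 to 25.3 CPM in the other CREBBP+/- and 15.3 to 31.0 CPM in CREBBP+/+ libraries. TMC5 and ADCY9 were picked after their values were seen. TMC5 had 0.0544 CPM in Het_8 and 5.78 to 10.8 CPM in the other CREBBP+/- libraries. In CREBBP+/+ libraries it had 0.185, 0.273, 7.57, 1.32 and 8.12 CPM in WT_1 to WT_5. ADCY9, the neighbour of CREBBP that encodes an adenylate cyclase, had 5.33 CPM in Het_9 and 14.1 to 20.2 CPM in every other library.

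**Figure D5:**
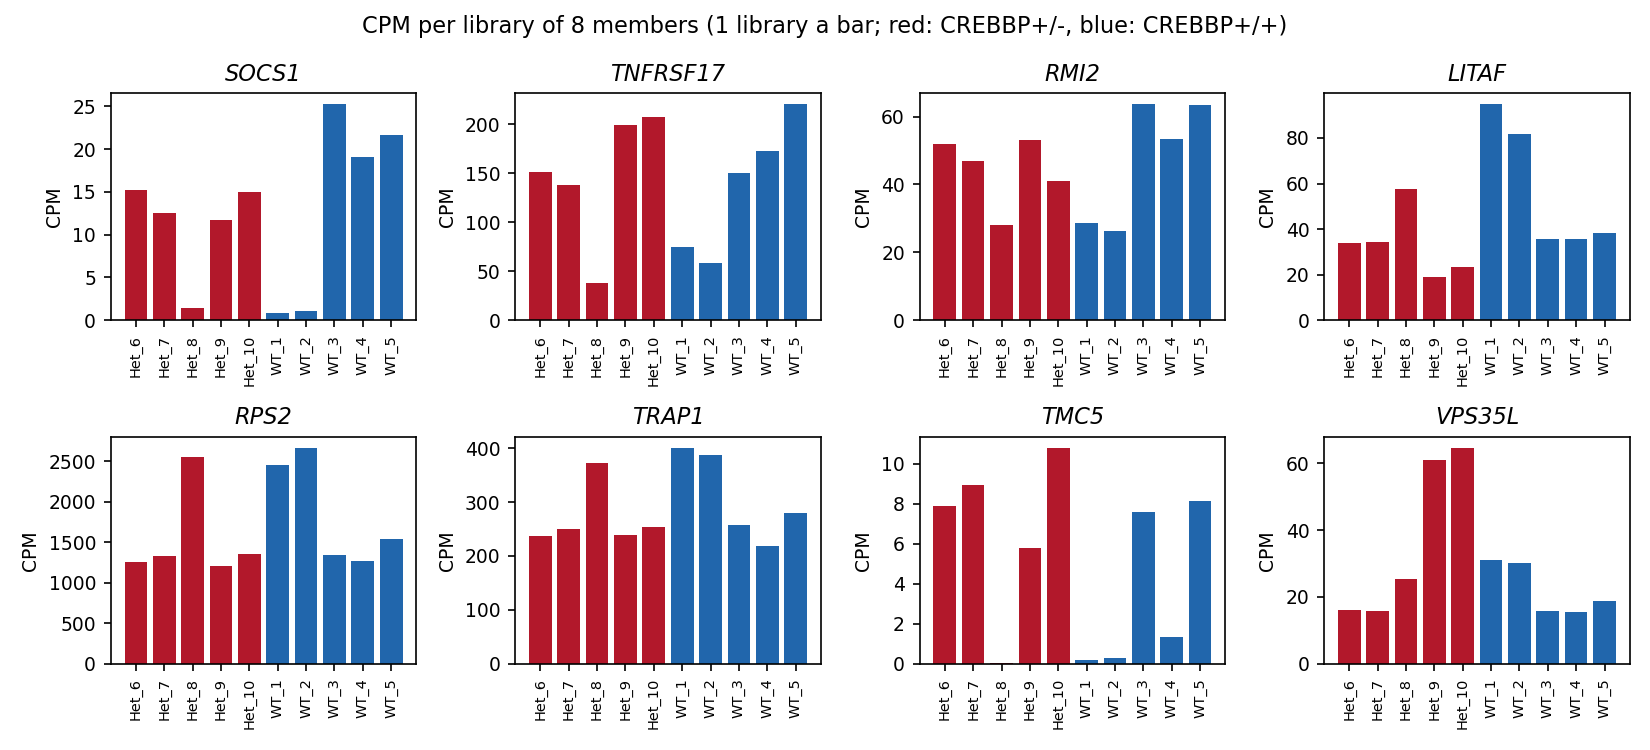
CPM (y axis, from 0) of 8 members in each library (x axis; 1 bar is 1 library, red CREBBP+/-, blue CREBBP+/+). SOCS1, TNFRSF17 and RMI2 are low and RPS2 and TRAP1 high in Het_8, WT_1 and WT_2, and VPS35L is high in Het_9 and Het_10.

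Grouped by role, 0 members passed the edgeR threshold over all genes in any of 10 lists. Of 7 members of mTORC1 and nutrient sensing, 6 were below 0 (median log2 fold change -0.12), and TSC2 had 81.7, 78.3, 116, 83.9 and 107 CPM in Het_6 to Het_10 and 91.5 to 111 CPM in CREBBP+/+ libraries. TELO2, which encodes a chaperone for kinases such as mTOR, was at -0.22 (SE 0.15). Of 10 members of B cell and immune signalling, 8 were below 0 (median -0.13), with TRAF7, a ubiquitin ligase, at -0.29 (SE 0.13). Of 12 members of DNA repair and replication, 8 were below 0 (median -0.093), with CCNF, which encodes cyclin F, at -0.15 (SE 0.087). TELO2, TRAF7 and CCNF had edgeR adjusted p from 0.977 to 0.988.

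Of 10 members of translation and ribosome, 7 were below 0 (median -0.12), and of 15 mitochondrial proteins 11 were (median -0.094), with MRPS34, a mitochondrial ribosomal protein, at -0.19 (SE 0.16, edgeR adjusted p = 0.988). Of 9 members of ubiquitin and proteostasis 8 were below 0 (median -0.11), of 11 zinc finger factors 6 (median -0.037), and of 15 members of membrane traffic, lysosome and glycosylation 11 (median -0.11). CLCN7, a lysosomal chloride transporter of the last list, was at -0.19 (SE 0.14, edgeR adjusted p = 0.988). Of 5 members around the alpha globin locus 3 were below 0 (median -0.074), and the globin genes themselves were under 1 CPM. Of 12 members of RNA processing and chromatin 10 were below 0 (median -0.076), with SRRM2, a spliceosome protein, at 989 to 1613 CPM in Het_6 to Het_10 and 945 to 1616 CPM in WT_1 to WT_5. Over all genes tested 52.4% were below 0, and over the 180 members 77.2%.

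In Het_6 and Het_7 the low position was seen across roles. The median deviation of the 10 lists lay between -0.34 and -0.074 in Het_6 and between -0.39 and -0.17 in Het_7, and it was nearest to 0 in the B cell and immune signalling list in both. TNFRSF17 and CLEC16A of that list start from 10 to 12 Mb, whereas TRAF7 and CARHSP1 do not. The members of that bin had medians of 0.0093 in Het_6 and -0.075 in Het_7, and role was not separated from position. RHOT2, a GTPase of the mitochondrial outer membrane, had 86.8 and 88.3 CPM in Het_6 and Het_7, 114 to 141 CPM in Het_8, Het_9 and Het_10, and 107 to 143 CPM in CREBBP+/+ libraries. USP7, a deubiquitinase, did not share it, with 485 and 467 CPM in Het_6 and Het_7, 415 to 531 CPM in Het_8, Het_9 and Het_10, and 405 to 544 CPM in CREBBP+/+ libraries.

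Reads of the region are hard to assign in places. Of the 180 members, 97 overlap another gene of the table, 80 of them on the opposite strand, and 18 belong to families with near-identical copies or pseudogenes, such as NPIPA, NOMO, PKD1 and SMG1. Of these 18, 12 were below 0 by genotype (median log2 fold change -0.095). The 3 genes of the stretch that are not protein-coding and reach 1 CPM, which the choice of members did not use, had a median of -0.15 in Het_6, -0.36 in Het_7, 0.31 in Het_8, 0.14 in Het_9 and 0.077 in Het_10. In CREBBP+/+ libraries it was 0.17, 0.071, -0.081, -0.081 and 0.13 in WT_1 to WT_5. Het_6 and Het_7 were together the lowest for none of the 3. ERVK13-1 deviated by 0.24 in Het_6 and was lowest in WT_1 and WT_2, at -0.57 and -0.64.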

How the data were processed

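RNA of 10 U2932 libraries, 5 CREBBP+/- and 5 CREBBP+/+, was sequenced after TruSeq preparation, per the labels' protocols. The authors deposited a table of raw gene counts; STAR, featureCounts, DESeq2, FastQC and GRCh38 are named in the submitters' processing notes, without versions or strand setting. All 2541 counts of 10000 or more carry 4 significant digits, so high counts were rounded. The Het columns are numbered 6 to 10 and were matched by genotype only.

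Positions came from GENCODE (GRCh38) for 20804 of 21174 identifiers. The mean CPM that set the members is a count per 1000000 of the library's total. CPM given per library used that total scaled by TMM factors. Log2 CPM used TMM factors and a prior count of 2. Genotypes were compared with edgeR 4.0.16 (quasi-likelihood, filterByExpr with a minimum count of 10, Benjamini-Hochberg adjustment over 11961 genes, threshold 0.05) in R 4.3.3. DESeq2 1.42.0 and limma 3.58.1 (voom) were alternatives. The edgeR steps were tested on simulated data. GC content came from GRCh38 and its transcripts. Outlying libraries in groups of 5 were sought with Dixon's ratio above 0.71.

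The members and lists were chosen with earlier results of these data known. Genes named were CREBBP and CIITA, up to 4 of the highest CPM per list, up to 6 per direction with the smallest p, and up to 6 with the lowest and the highest mean deviation of Het_6 and Het_7; others are said to be chosen after their values were seen.

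Some results are not reported here.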

Additional observations from a re-analysis of the deposited data

Results flagged for a closer look

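Among 144 sets of 5 libraries of 1 genotype that were examined, 8 had a library far from the other 4. Chance alone flags about 1 in 20, so this count is near chance. In 7 of the 8 that library was Het_8. Het_8 also stood apart across the genome, below every other library for 14.7% and above every other for 14.2% of all 11262 protein-coding genes. The values below are thus no result about the members. Its log2 CPM of TNFRSF17 was 5.24, with the nearest other CREBBP+/- library at 7.11, and that of NPIPB2, which overlaps TNFRSF17, was 0.97 against 2.39. SNRNP25, which encodes a protein of the minor spliceosome, stood at 6.02 in Het_8 against 6.48. TRAF7 was higher in Het_8, at 7.27 against 6.85, as were RPS2 at 11.31 against 10.40 and TRAP1 at 8.54 against 7.99. The median deviation of the 15 members from 10 to 12 Mb was -0.58 in Het_8, with the nearest other CREBBP+/- library at -0.075. The median deviation of the 3 members from 16 to 18 Mb was 0.55 in Het_10, with the nearest at 0.045.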

How the results depend on the processing

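The members' median deviation stayed below 0 in Het_6 (-0.29 to -0.17) and Het_7 (-0.30 to -0.20) under every scaling, minimum, centring and left-out library tried. It also stayed below 0 in WT_3 (-0.19 to -0.019) and WT_4 (-0.20 to -0.0077). The low values of Het_6 and Het_7 chose the stretch, so their persistence supports nothing further. Centring by transcript GC, chosen after the data were seen, moved WT_4 to -0.20, and the cause was not tested. The count of members with Het_6 and Het_7 highest was 0 at a mean CPM of 5 or more. The count of members lower in CREBBP+/- at an unadjusted p under 0.05 was 7 with upper-quartile factors and 2 without Het_6 and Het_7, where 2 were higher. Leaving out 1 library gave 4 to 23 lower and 0 to 3 higher. SOCS1 turned to 0.34 with limma-voom and ranged from -0.59 to 0.060 with 1 library left out, and TNFRSF17 ranged from -0.078 to 0.36. Individual leave-outs turned TNFRSF17 to -0.040 (Het_10), -0.021 (Het_9), -0.039 (WT_1) and -0.078 (WT_2). Without Het_9 and Het_10, log2 fold changes turned to -0.31 for TNFRSF17, -0.062 for XYLT1 and -0.22 for VPS35L. Values under 1 CPM, such as those of TMC5 and SHISA9, rest on few counts. No paired analysis was possible because the CREBBP+/- columns carry numbers that no labelled library has.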
